A study of Mus musculus with 6 samples.

Results

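Splicing factor genes were followed in hematopoietic stem cells (HSCs) sorted from mouse bone marrow (BM), and their mRNA was compared between control mice and mice given recombinant IGF1. The members were all genes whose symbol begins with Srsf and a digit, Hnrnp, Snrp, Lsm and a digit, Sf3a, Sf3b or U2af, which gave 68 of the 21878 rows in each library. The rule used the symbols and no measured value. Each group had 3 RNA-seq libraries of wild-type (WT) HSCs, labelled control and IGF-1. Per the methods of the study, the mice were C57BL/6, IGF1 was injected under the skin as a single dose, and HSCs were sorted on the following day as Lineage-, Sca-1+, c-Kit+, Flk2- and CD34- cells. The label on RNA extraction names control or IR (irradiated) mice in place of IGF1, and the treatment label was taken. Nothing in the labels says that the 3 libraries of a group came from separate animals, so the p-values measure only the spread between these libraries, which may be technical.

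Removal of introns is carried out by the spliceosome, which is built from small nuclear ribonucleoproteins (snRNPs), each made of a U-rich small nuclear RNA and a set of proteins. Sm proteins form a ring around the RNA of U1, U2, U4 and U5, and the related LSm proteins form a ring around U6 RNA in the nucleus or act in mRNA decay in the cytoplasm. SR proteins bind exons and mostly favour their inclusion, hnRNP proteins coat pre-mRNA and often favour skipping, U2AF recognizes the end of the intron, and the SF3A and SF3B complexes sit in the U2 snRNP at the branch point. Activated and dividing blood progenitors are known for a high demand on mRNA processing, and several of these genes (Sf3b1, Srsf2 and U2af1) are recurrent mutation sites in human myeloid disease.

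The values are FPKM, that is, reads on a gene divided by its length and by the depth of the library, so that levels can be compared between genes. Depth ran from 11300000 to 16100000 reads, recovered from the whole-read steps of the values. Of the 68 members, 67 had a value above 0 and 66 passed the filter of at least 1 FPKM in at least 3 libraries. Snrpn, which codes for an Sm protein of brain and heart, was listed at 0 in all 6 libraries, and Srsf12, a low-level SR protein, lay between 0 and 0.178 FPKM. The tested members were backed by 11 to 37579 reads per library. Control replicate 2 stood apart from the other controls over all genes: its squared deviation from control replicates 1 and 3, in units of counting noise, averaged 229 and 231 per gene, against 1.52 between control replicates 1 and 3, 24.6 to 28.0 between control replicate 2 and the IGF1 libraries, and 1.69 to 1.89 within the IGF1 group. Whether the label of this library is right, or whether it mixes material of both groups, cannot be told from the files. Results are therefore given with and without it. Several marker lists of other cells differed between libraries as well. The 13 neutrophil and monocyte genes summed to 3661, 6191 and 3716 FPKM in control replicates 1 to 3 and to 6176 to 6210 FPKM in IGF1 libraries. The 9 B cell genes summed to 122, 498 and 121 FPKM against 474 to 493 FPKM. In both sums control replicate 2 stood with the IGF1 libraries, while for S100a8 it lay between the groups. Of the T and NK genes, Nkg7 had 366, 776 and 356 FPKM against 767 to 787 FPKM, while Cd3e and Ncr1 were under 0.290 FPKM in every library. The 13 genes of the HSC list summed to 1479, 1260 and 1497 FPKM against 954 to 980 FPKM, with control replicate 2 nearer to the controls. The list holds Cd34 and Flt3, whose proteins the gate excluded, and Cd48, which the study's imaging took as absent from HSCs. Cd34 alone had 640, 265 and 634 FPKM against 230 to 238 FPKM. Ly6a, the gene of Sca-1, had 219, 615 and 231 FPKM against 374 to 387 FPKM. The sum is therefore not a measure of HSC content. Erythroid genes summed to 42.1, 114 and 45.5 FPKM against 57.3 to 63.2 FPKM and megakaryocyte genes to 53.0, 75.2 and 52.3 FPKM against 93.7 to 104 FPKM, with control replicate 2 highest in the former and between the groups in the latter. Megakaryocyte genes also went both ways. Pf4 had 15.6, 48.6 and 15.1 FPKM against 63.1 to 73.7 FPKM, and Itga2b 32.2, 16.8 and 32.3 FPKM against 17.9 to 19.3 FPKM. Calls among these lists (rule below) were 4 of 12 neutrophil and monocyte genes lower and 1 of 4 megakaryocyte genes higher, against 4.63% and 1.98% of all genes, and no others. None of the listed genes was at 0 in every library. Although the gate excluded the proteins, Cd34 mRNA was at 230 to 640 FPKM and Flt3 (Flk2) mRNA at 117 to 188 FPKM, while the long-term HSC genes Slamf1 and Fgd5 did not pass 2.41 and 1.68 FPKM. The part of these markers in the splicing factor values was not tested, and fewer cells of a type cannot be told apart from less RNA per cell.

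The promoters of the members that passed the test come first, since the values below turn on these genes. RefSeq's table (GRCm38.p6) held an entry for 58 of the 68 members, among them Snrpf, Hnrnpf and Hnrnpa2b1 but not Hnrnpll. The longest stretch before the start site of the first entry that overlaps no exon of GENCODE vM21 is given, read 5′ to 3′ on the strand of the gene. The stretches are chr10:93589771-93589908 (minus strand) for Snrpf, chr6:117900090-117900323 (plus strand) for Hnrnpf and chr6:51469895-51470144 (minus strand) for Hnrnpa2b1. Capitals mark a match to CCAAT on either strand, and the Hnrnpf stretch has none.
Snrpf: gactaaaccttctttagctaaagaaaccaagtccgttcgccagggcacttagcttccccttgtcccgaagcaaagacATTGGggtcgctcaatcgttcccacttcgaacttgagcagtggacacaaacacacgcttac
Hnrnpf: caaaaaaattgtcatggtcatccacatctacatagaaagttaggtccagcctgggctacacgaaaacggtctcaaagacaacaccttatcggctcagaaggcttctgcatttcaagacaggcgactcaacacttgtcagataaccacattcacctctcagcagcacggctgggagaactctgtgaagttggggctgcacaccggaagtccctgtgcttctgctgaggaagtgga
Hnrnpa2b1: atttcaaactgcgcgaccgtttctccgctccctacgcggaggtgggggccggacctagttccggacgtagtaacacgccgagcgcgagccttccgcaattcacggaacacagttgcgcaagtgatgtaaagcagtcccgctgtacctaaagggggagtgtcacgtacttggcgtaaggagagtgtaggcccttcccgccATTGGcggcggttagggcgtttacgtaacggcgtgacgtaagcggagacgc
Searched on both strands in the 250 bases before the start, CCAAT was found in 26 of the 58 member promoters (44.8%) and in 34.5% of 27025 promoters in the table. GGGCGG, the core of a GC box, was found in 39 of 58 (67.2%) against 32.9% of all promoters. It was present in 7 of 14 promoters of small snRNP proteins and in 23 of 29 promoters of SR and hnRNP proteins, and in none of the 3 stretches shown. TATAAA was found in 5 members (8.62%) against 13.0%, and CACGTG, the E-box, in 3 (5.17%) against 6.05%. The motifs do not overlap each other in sequence. The promoters of the table were not limited to genes expressed in these cells, so the shares describe the promoters and carry no test.

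**Figure D1:**
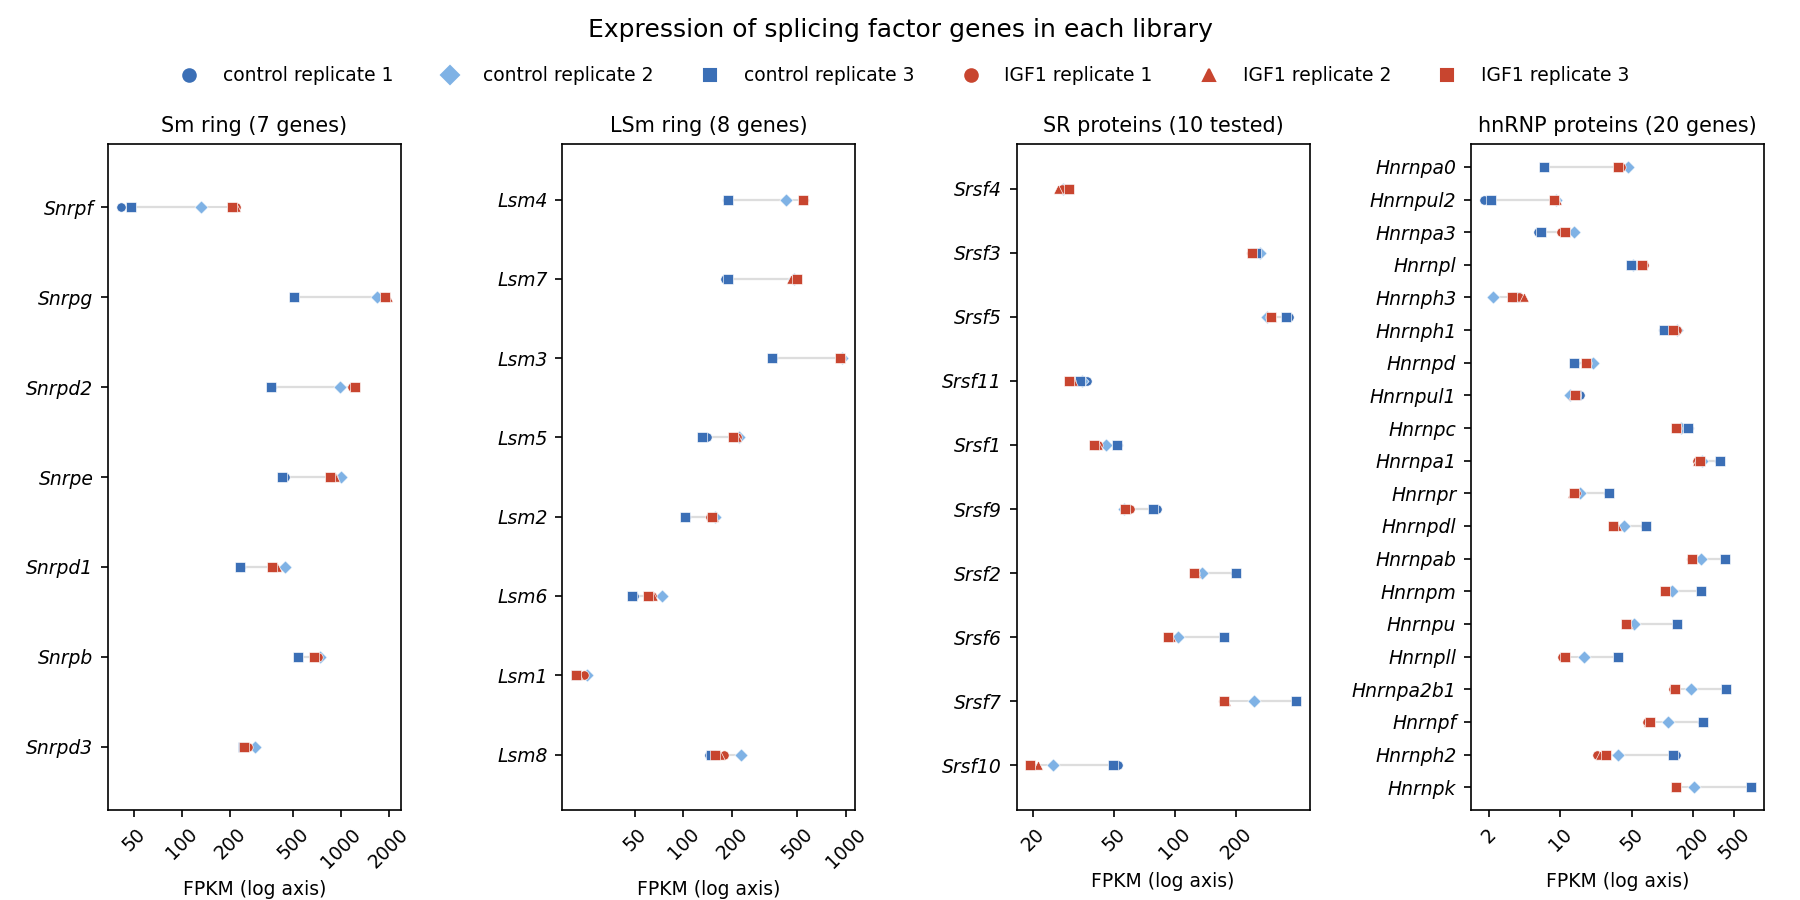
FPKM (log axis) of each tested Sm ring, LSm ring, SR and hnRNP gene in the 6 libraries, with controls in blue (control replicate 2 as a pale diamond) and IGF1 libraries in red, genes ordered by log2 change. Control replicate 2 lies with or near the IGF1 libraries for most genes, as for Hnrnpk at 201 FPKM against 725 and 727 FPKM in the other controls and 132 to 136 FPKM after IGF1.

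To ask whether IGF1 changed splicing factor mRNA in HSCs, each gene was tested with limma on log2(FPKM + 1), and a call needed a fold change over 2 and an adjusted p under 0.05. Snrpf rose and Hnrnpf, Hnrnpa2b1 and Hnrnpll fell, that is, 1 member of 66 was called higher (1.52%) and 3 were called lower (4.55%). Over all 10449 genes tested, 1.98% were called higher and 4.63% lower, so that the members were called about as often as any gene. Without a fold threshold, 9 of 66 members (13.6%) had an adjusted p under 0.05 against 20.4% of all genes. The 4 calls stood between adjusted p = 0.0429 and 0.0459 (limma), and leaving out control replicate 1 or 3 or any IGF1 library ended all 4 of them, as it ended every call: 0 of 10449 genes were then called by limma, with 2982 to 3205 at an unadjusted p under 0.05. Leaving out control replicate 2 had the opposite effect: 12 members were then called higher (18.2%) and 13 lower (19.7%), against 12.3% and 20.6% of all genes, and these 25 contained the 4 from all libraries. Scaling mattered as well. Quantile normalization gave 2 members higher and 1 lower, against 2.91% and 3.05% of all genes. Scaling to the 75th percentile gave 2 higher and 3 lower, against 3.74% and 1.99%, so that over all genes calls of higher then outnumbered those of lower. Scaling by the median of ratios also gave 2 and 3, against 2.67% and 2.66%. The median log2 change of all genes was -0.18 as deposited and -0.02, 0.06 and -0.02 under these scalings. The values of the IGF1 libraries lay above every control for 10 of 66 members (15.2%) against 21.9% of all genes, and below every control for 26 (39.4%) against 37.4%. With 3 libraries against 3, an exact permutation test of a single gene cannot go below p = 0.1 (two-sided).

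Snrpf, a core Sm protein, had 41.4, 132 and 47.8 FPKM in control replicates 1 to 3 and 218, 218 and 206 FPKM in IGF1 replicates 1 to 3. All IGF1 libraries lay above all controls, and control replicate 2 lay between the groups. The log2 change was 1.72 (SE 0.43, adjusted p = 0.0459, limma), and 2.24 (SE 0.06, adjusted p = 2e-10) without control replicate 2. Snrpf lies on chromosome 10 from 93583029 to 93589706 (GRCm38, GENCODE vM21, minus strand). There, 65.9% of its exon bases are also covered by exons of Ccdc38 and 19.5% by exons of 4933408J17Rik, both on the opposite strand. Whether the counting used strand is not given in the sources used here. Ccdc38 was itself at 0.0148 to 0.275 FPKM.

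The other Sm ring genes did not pass the test with all libraries, but they were far apart in size. Snrpg had the highest level of the ring after IGF1, with 506, 1694 and 504 FPKM in controls and 1892, 1974 and 1894 FPKM after IGF1 (log2 change 1.34, SE 0.50, adjusted p = 0.0797). Snrpd2 had 369, 992 and 364 FPKM in controls and 1173, 1204 and 1222 FPKM after IGF1 (1.23, SE 0.42, adjusted p = 0.0671). Both were thus higher in every IGF1 library than in any control, with control replicate 2 well toward the IGF1 level. Snrpe had 442, 1001 and 426 FPKM in controls and 888, 924 and 856 FPKM after IGF1, so that control replicate 2 exceeded each IGF1 library. Snrpd1 behaved alike, with 234, 443 and 233 FPKM in controls and 373, 394 and 369 FPKM after IGF1. Snrpb, which also exists as a longer splice form, had 536, 742 and 538 FPKM in controls and 721, 684 and 673 FPKM after IGF1. Snrpd3 was level, with 251, 287 and 243 FPKM in controls and 259, 244 and 244 FPKM after IGF1 (log2 change -0.06, SE 0.12). Without control replicate 2, Snrpd2 (log2 change 1.71), Snrpg (1.92) and Snrpe (1.03) were called higher along with Snrpf, and Snrpd1 (0.69), Snrpb (0.37) and Snrpd3 (0.01) did not pass the fold of 2.

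Proteins of this ring join in equal numbers, whereas their mRNAs did not keep a fixed ratio. Snrpg stood at 2.01, 5.91 and 2.07 times the level of Snrpd3 in the controls and at 7.31, 8.07 and 7.76 times after IGF1. Snrpf was the lowest of the ring in every library, and the highest was Snrpb in control replicates 1 and 3 and Snrpg in the other libraries. The highest exceeded the lowest by 13.0, 12.9 and 11.2 times in controls and by 8.69, 9.07 and 9.19 times after IGF1.

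The LSm ring genes likewise differed in size of change and in the place of control replicate 2. Lsm4 had 186, 429 and 187 FPKM in controls and 554, 535 and 549 FPKM after IGF1 (log2 change 1.15, SE 0.35, adjusted p = 0.0564), and was the only gene of Lsm1 to Lsm8 in which no control reached an IGF1 library. Lsm3 had 356, 949 and 353 FPKM in controls and 932, 937 and 920 FPKM after IGF1 (0.92, SE 0.41). Lsm7 had 181, 481 and 189 FPKM in controls and 503, 463 and 499 FPKM after IGF1 (0.94, SE 0.39). In both, control replicate 2 was as high as the IGF1 libraries. Lsm2 and Lsm5 had smaller log2 changes of 0.33 and 0.40. Lsm6, at 48.1 to 73.9 FPKM, and Lsm8, at 144 to 225 FPKM, were highest in control replicate 2, with log2 changes of 0.16 and -0.02. Lsm1, which replaces Lsm8 in the cytoplasmic ring of mRNA decay, had 21.7, 25.3 and 21.8 FPKM in controls and 24.4, 22.4 and 21.9 FPKM after IGF1 (log2 change 0.00, SE 0.11). Without control replicate 2, Lsm3 (1.39), Lsm4 (1.54) and Lsm7 (1.39) were called higher. Of the U7 snRNP proteins of histone mRNA processing, Lsm10 had 38.7, 74.4 and 39.0 FPKM in controls and 68.4, 68.6 and 77.2 FPKM after IGF1, and Lsm11 stayed between 2.04 and 2.64 FPKM in all libraries. Among LSm proteins outside the rings, Lsm14b, a protein of mRNA storage granules, was at 0.250, 1.99 and 0.724 FPKM in controls and 3.15, 3.99 and 2.77 FPKM after IGF1 (log2 change 1.20, SE 0.33, adjusted p = 0.0503). It rested on 11 to 124 reads and was called under each of the 3 scalings. Its relative Lsm14a had a log2 change of -0.28 and Lsm12 of 0.20.

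Proteins particular to U1 and U2 snRNPs were split. Snrpc, the U1-C protein, had 170, 331 and 163 FPKM in controls and 344, 342 and 366 FPKM after IGF1 (log2 change 0.74, SE 0.29, adjusted p = 0.0862), and was called higher without control replicate 2 (1.07). Snrpb2, a U2 protein, had a log2 change of 0.38. Snrpa (U1-A) at 113 to 133 FPKM and Snrpa1 (U2-A′) at 126 to 138 FPKM had log2 changes of -0.12 and 0.02. Exons of BC024978, at 0.721 to 1.26 FPKM, overlap 11.0% of the exon bases of Snrpa on the opposite strand. U2af1, the subunit that reads the AG at the intron end, had 175, 189 and 172 FPKM in controls and 182, 185 and 205 FPKM after IGF1. U2af2, the subunit that binds the pyrimidine tract, had 15.9, 12.9 and 14.7 FPKM in controls and 13.8, 13.4 and 13.2 FPKM after IGF1. Their log2 changes were 0.09 (SE 0.11) and -0.10 (SE 0.12), and U2af1 stood at 11.0 to 15.6 times the level of U2af2 in every library. U2af1l4, a paralog of U2af1, had a log2 change of 0.51 (SE 0.20). It shares 65.6% of its exon bases with the annotated gene Gm49396 on the same strand, so its value is uncertain.

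The SF3 complex held members on both sides. Sf3b3 had 89.3, 25.3 and 88.9 FPKM in controls and 19.3, 19.8 and 20.2 FPKM after IGF1 (log2 change -1.53, SE 0.49, adjusted p = 0.0614). Sf3a3 had 130, 79.9 and 134 FPKM in controls and 57.7, 58.4 and 61.2 FPKM after IGF1 (-0.91, SE 0.22, adjusted p = 0.0434), under the fold of 2. Sf3b5, a small SF3B subunit, went the other way with 161, 332 and 169 FPKM in controls and 386, 387 and 392 FPKM after IGF1 (0.89, SE 0.29, adjusted p = 0.0636). Sf3a2 had 9.36, 10.9 and 9.04 FPKM in controls and 15.2, 13.8 and 15.9 FPKM after IGF1 (0.57, SE 0.12, adjusted p = 0.0399), also under the fold of 2. Exons of Plekhj1, at 92.9 to 172 FPKM, overlap 16.1% of its exon bases on the opposite strand. Sf3b6, named after its values were seen, had 187, 357 and 187 FPKM in controls and 291, 296 and 301 FPKM after IGF1, so that control replicate 2 exceeded the IGF1 libraries. Without control replicate 2, Sf3b3 (log2 change -2.12) and Sf3a3 (-1.15) were called lower and Sf3b5 (1.23) higher.

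Among hnRNP genes, Hnrnpk had the highest level in control replicates 1 and 3. It codes for a poly(C)-binding protein of transcription, splicing and translation, and had 725, 201 and 727 FPKM in controls and 136, 132 and 134 FPKM after IGF1. Its log2 change of -1.81 (SE 0.51) was the most negative of all members tested, yet with control replicate 2 so far below the other controls the adjusted p was 0.0526. Without that library the log2 change was -2.43 (SE 0.03, adjusted p = 1.5e-12). Hnrnph2, on the X chromosome, had 135, 36.7 and 127 FPKM in controls and 22.7, 24.6 and 28.0 FPKM after IGF1 (-1.74, SE 0.50, adjusted p = 0.0537).

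The 3 genes that fell with all libraries were also hnRNP genes. Hnrnpf, which binds G-rich tracts, had 242, 113 and 251 FPKM in controls and 70.4, 71.9 and 74.5 FPKM after IGF1 (log2 change -1.38, SE 0.32, adjusted p = 0.0429). It lies on chromosome 6 from 117900324 to 117925622 (plus strand), where 13.5% of its exon bases are shared with 4933440N22Rik and 13.0% with Gm43863 on the opposite strand. The former was at 0.145 to 1.18 FPKM in controls and 2.94 to 3.43 FPKM after IGF1. Hnrnpa2b1, an abundant pre-mRNA coat protein, had 422, 191 and 418 FPKM in controls and 126, 130 and 131 FPKM after IGF1 (-1.31, SE 0.32, adjusted p = 0.0458), on chromosome 6 from 51460932 to 51469894 (minus strand). Hnrnpll, known for the switch of CD45 splicing in lymphocytes, had 36.9, 16.9 and 36.4 FPKM in controls and 10.3, 11.3 and 11.2 FPKM after IGF1 (-1.30, SE 0.31, adjusted p = 0.043), on chromosome 17 from 80029487 to 80062334 (minus strand). In all 3 genes the lowest control was 1.48 to 1.56 times the mean of the IGF1 libraries.

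At the other end, Hnrnpa0 had 6.92, 45.4 and 6.86 FPKM in controls and 39.0, 36.6 and 36.6 FPKM after IGF1. Its log2 change of 1.43 (SE 0.70, adjusted p = 0.137) carried the largest standard error of all members tested, with control replicate 2 far above the other controls and above every IGF1 library. Hnrnpul2 likewise had control replicate 2 at the IGF1 level, at 1.80, 9.02 and 2.08 FPKM in controls and 8.89, 9.22 and 8.63 FPKM after IGF1 (1.16, SE 0.49). Without control replicate 2 their log2 changes were 2.28 and 1.76, and they were the hnRNP genes called higher, against 9 called lower of 20. These shares were 10% higher and 45% lower, beside 12.3% and 20.6% of all genes.

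SR genes lay on the negative side in 10 of 10 tested, within a smaller range, beside 6228 of 10449 genes. With length and GC trends removed (described with gene length), 6 of 10 lay above 0 with a median log2 change of 0.12. Srsf7 had 397, 246 and 397 FPKM in controls and 173, 179 and 175 FPKM after IGF1 (log2 change -0.94, SE 0.21, adjusted p = 0.0423), under the fold of 2. Srsf10, an SR-like splicing repressor in its dephosphorylated form, had 52.5, 25.1 and 49.4 FPKM in controls and 19.5, 21.1 and 19.3 FPKM after IGF1 (-0.98, SE 0.29, adjusted p = 0.054). Both were lower in every IGF1 library than in any control, and both were called lower without control replicate 2 (-1.17 and -1.31). Srsf5, the SR gene with the highest mean level, had 366, 285 and 354 FPKM in controls and 295, 300 and 296 FPKM after IGF1. Srsf3, at 237 to 263 FPKM, and Srsf4, at 26.6 to 30.0 FPKM, had log2 changes of -0.11 and -0.03. Exons of Gm12992 on the opposite strand overlap 43.0% of the exon bases of Srsf4. The direction of Srsf3, Srsf4 and Srsf5 turned positive under the 75th percentile and median of ratios scalings, and that of Srsf4 under quantile normalization too.

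**Figure D2:**
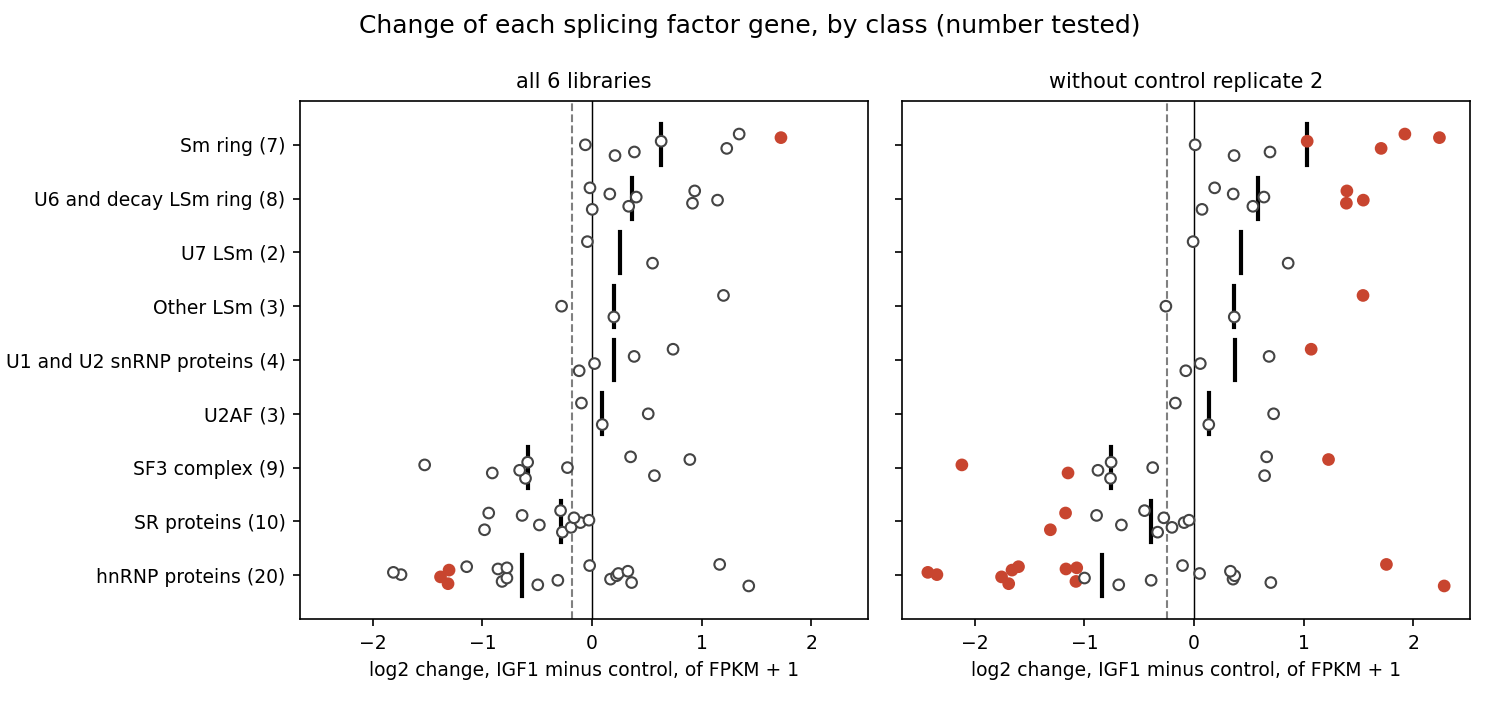
Log2 change (IGF1 minus control, of FPKM + 1) of the 66 tested members by class, with all 6 libraries (left) and without control replicate 2 (right). Filled red points passed the test, black bars are class medians and the dashed line is the median of all genes tested. The Sm ring median was 0.63 with all libraries and 1.03 without control replicate 2, and the hnRNP median was -0.64 and -0.84.

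Set against each other, the small snRNP proteins (the Sm, LSm and U7 rings, 17 tested) were above 0 in 14 of 17 members and the SR and hnRNP proteins in 7 of 30, against 4221 of 10449 over all genes. The medians of their log2 changes were 0.40 and -0.40, a difference of 0.80, beside -0.18 for all genes. Without control replicate 2 they were 0.69 and -0.56, beside -0.24, with 7 of 17 small snRNP genes called higher and 0 lower, and 2 of 30 SR and hnRNP genes called higher and 11 lower, against 12.3% higher and 20.6% lower of all genes. The difference was 0.80 to 0.82 under the 3 scalings and 0.60 to 1.25 when 1 library was left out. With length and GC trends removed (described with gene length), the medians were 0.40 and 0.09. They were 0.10 and 0.04 when the length recovered from the FPKM values was used. Within single libraries, the median log2 level of small snRNP genes exceeded that of SR and hnRNP genes by 0.99, 2.44 and 1.05 in control replicates 1 to 3 and by 2.31, 2.23 and 2.26 in IGF1 replicates 1 to 3. Control replicate 2 thus had the widest gap of the 6, and the groups overlapped in this measure, whose spread between libraries of a group was 0.58 (pooled SD, n = 3 per group).

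Summed FPKM differed in the same direction. The 7 Sm ring genes came to 2381, 5290 and 2357 FPKM in controls and to 5522, 5641 and 5464 FPKM after IGF1. The 30 SR and hnRNP genes came to 4829, 2940 and 4797 FPKM in controls and to 2506, 2529 and 2524 FPKM after IGF1. Their ratio was 0.493, 1.80 and 0.491 in controls and 2.20, 2.23 and 2.17 after IGF1, so that here every IGF1 library lay above every control. Sums are led by a few abundant genes, and the summed FPKM of all genes differed too, at 466619, 635111 and 466135 in controls and 677826 to 680285 after IGF1.

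**Figure D3:**
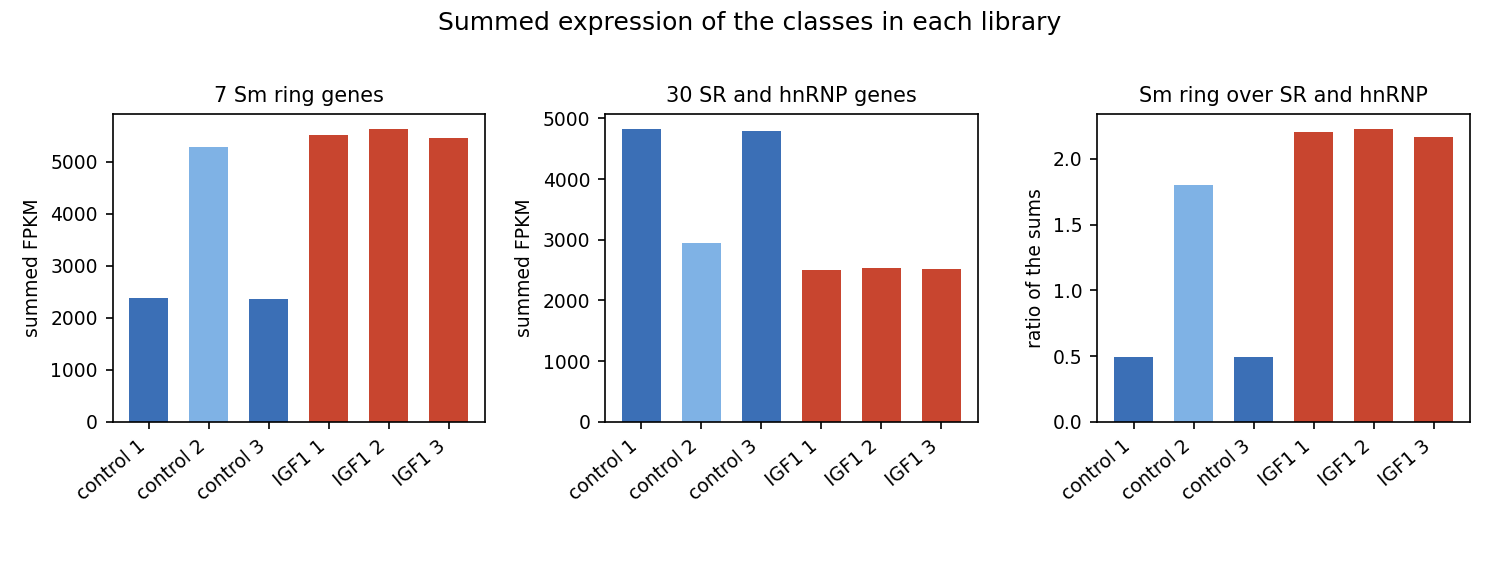
Summed FPKM of the 7 Sm ring genes (left) and of the 30 tested SR and hnRNP genes (middle) and the ratio of these sums (right) in each library, with controls in blue, control replicate 2 in pale blue and IGF1 libraries in red. The ratio was 0.493 and 0.491 in control replicates 1 and 3, 1.80 in control replicate 2 and 2.17 to 2.23 after IGF1.

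Control replicate 2 was placed for each gene on a line from the mean log2 level of the other controls (0) to that of the IGF1 libraries (1). For the 41 members in which these ends differed by at least 0.5, its median position was 0.83, beside 0.81 over 6619 such genes. It was above 0.5 in 40 of the 41 and beyond 1 in 11, against 5708 and 1411 of the 6619. Sf3a2 was the member with the lowest position, at 0.35. For the 11 small snRNP genes the median position was 1.02 and for the 18 SR and hnRNP genes it was 0.78.

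Gene length and GC content moved with the change. The length used in the FPKM values could be recovered from their steps, and was 393 to 1255 bases for the Sm ring, with a median of 813 bases for small snRNP genes and 3249 bases for SR and hnRNP genes. Over all genes tested, those under 1000 bases had a median log2 change of 0.91, and 672 of 738 lay above 0. The 11 small snRNP genes of that length had a median of 0.92, and 9 of 11 lay above 0, so their share was near that of any short gene. From 2000 to 4000 bases the median was -0.38 over 3879 genes and -0.73 over 16 SR and hnRNP genes. The longer ring genes Lsm1 (2815 bases), Lsm6 (3801 bases) and Lsm11 (6860 bases) had log2 changes of 0.00, 0.16 and -0.04. Short members outside the rings were Sf3b5 (734 bases, 0.89), Snrpc (761 bases, 0.74), U2af1l4 (864 bases, 0.51) and U2af1 (985 bases, 0.09). The rank correlation of length and log2 change was -0.57 across the 66 members and -0.22 across 10353 genes, a description only, since these genes share the same libraries. It was -0.56 within the 17 small snRNP genes and 0.00 within the 30 SR and hnRNP genes. For GC content the rank correlation was 0.22 across the members and 0.38 across all genes. Median GC content was 47.2% for small snRNP genes, 43.3% for SR and hnRNP genes and 49.7% for all genes tested.

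**Figure D4:**
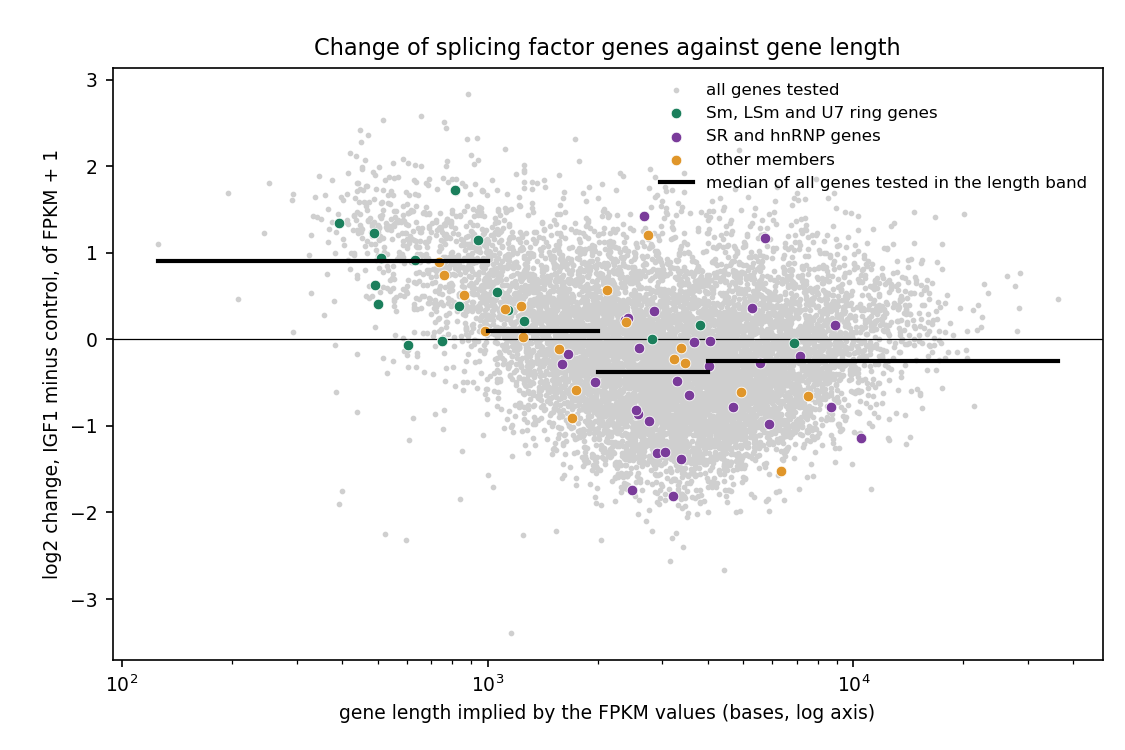
Log2 change (IGF1 minus control, of FPKM + 1) against the gene length implied by the FPKM values (bases, log axis) for all genes tested (grey) and for members by class, with black bars for the median of all genes in 4 length bands. Genes under 1000 bases had a median of 0.91 and those from 2000 to 4000 bases of -0.38, and the small snRNP genes lie mostly in the short band.

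When the trends of each library on transcript length and GC content were removed, the median log2 change was 0.40 for small snRNP genes and 0.09 for SR and hnRNP genes, a difference of 0.31. With the recovered length in place of the annotated one, the medians were 0.10 and 0.04 and the difference was 0.07. Some members kept log2 changes beyond 1 in size. Snrpf had a log2 change of 1.48 and 1.45 in these settings, Hnrnpa0 of 1.55 and 1.58, Hnrnpul2 of 1.39 and 1.42, Lsm14b of 1.53 and 1.63, Hnrnpk of -1.15 and -1.09, Hnrnph2 of -1.09 in both and Sf3b3 of -1.20 and -1.31. By contrast Snrpg had 1.12 and 0.29, Snrpd2 0.98 and 0.10, Lsm3 1.17 and 0.24, and Lsm7 0.37 and -0.31. Snrpf was the only member called higher in both settings, against 1.51% and 1.69% of all genes. Hnrnpf (-1.06) was the only one called lower in the first, against 1.48% of all genes, and no member was by limma in the second, against 1.35%, where 3 members had an unadjusted p under 0.05 and a fold over 2 in that direction. Why length and GC content moved with the groups was not tested.

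For the wider splicing machinery, 113 genes outside the rule could be tested, such as the Prpf, Snrnp and Dhx genes, SMN complex genes and other RNA-binding proteins. Of these, 1 was called higher and 2 lower (0.885% and 1.77%, against 1.98% and 4.63% of all genes), with a median log2 change of -0.27 beside -0.18. Srrm2, a large scaffold of nuclear speckles, rose from 20.3, 36.3 and 19.6 FPKM in controls to 53.7, 52.4 and 54.5 FPKM after IGF1 (log2 change 1.10, SE 0.24, adjusted p = 0.0412). Khdrbs1 (Sam68) fell from 58.9, 23.8 and 57.8 FPKM to 17.1, 17.3 and 16.4 FPKM (-1.31, SE 0.35, adjusted p = 0.0498). Wdr77, a partner of Prmt5 in the methylation of Sm proteins, fell from 74.0, 33.0 and 76.8 FPKM to 24.0, 24.7 and 23.6 FPKM (-1.22, SE 0.33, adjusted p = 0.0499). These 3 calls too were lost when any library other than control replicate 2 was left out. With length and GC trends removed their log2 changes were 0.89, -0.69 and -0.72, under the fold of 2. Without control replicate 2, 13 of the 113 were called higher and 25 lower (11.5% and 22.1%), near the shares of all genes. Many splicing factor genes have near-identical processed copies in the mouse genome, and how reads shared with them were counted is not given in the sources used here.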

How the data were processed

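RNA-seq of HSCs sorted from mouse BM gave 3 control and 3 IGF1 libraries, grouped by the treatment label. The authors' processing notes name fastp, HISAT2, StringTie and GRCm38 (mm10), while the study's methods name fastp, RSEM and DESeq2. The authors deposited 1 FPKM value per gene symbol and library, with no replicates pooled. The unit was read from the values. Their steps gave whole reads (tolerance 0.0002 reads, wider at high counts) for 14838 of 14838 genes above 0 in at least 2 libraries, and a gene length within 0.01 of a whole number for 99.2% of the 12620 genes above 0 in all libraries. Columns of other samples numbered 0. The log2 of FPKM plus a pseudocount of 1 entered limma 3.58.1 (R 4.3.3, variance trend, 2-sided) for the 10449 genes that reached 1 FPKM in 3 or more libraries, and p-values were adjusted by Benjamini-Hochberg over all of them. The fold understates changes of low genes. The test was also run on simulated data. Their spread was taken from all libraries except control replicate 2, so the simulation does not show how the test performs with that library. Counting error and the number of libraries limit the precision. Named genes were the called members, the extremes and the highest gene of each class, the Sm ring, Lsm2 to Lsm8, U2af1, U2af2 and called genes of the outside list. Members, classes, lists and tests were chosen with earlier results of these data known. Alternatives were other scalings, filters, pseudocounts and variance settings, library weights, a replicate block, leaving out libraries, removal of length and GC trends, and limma voom on recovered reads. The 2 settings that used the recovered length, or length and GC without control replicate 2, were added after seeing the data. Proteins were not analysed here.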

Additional observations from a re-analysis of the deposited data

How the results depend on the processing

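The number of members called moved with most settings. Members called higher and lower were 2 and 1 with quantile normalization, 2 and 3 with 75th percentile or median of ratios scaling, 0 and 0 with no filter (67 tested, 5 and 7 with an unadjusted p under 0.05 and a fold over 2, and 0.697% and 1.69% of all genes called), 12 and 13 with library weights (12.2% and 20.7% of all genes), 1 and 1 with length and GC trends removed, 15 and 7 with these removed and without control replicate 2 (11.4% and 9.30% of all genes), and 1 and 0 with trends on the recovered length and GC removed. With no fold threshold they were 2 and 7 (3.03% and 10.6%), beside 6.26% and 14.1% of all genes. With the replicate block, 0 and 0 were called by limma (6 and 7 with an unadjusted p under 0.05 and a fold over 2), and 0 of all genes (4791 with an unadjusted p under 0.05). Whether the numbers pair samples cannot be told. Deviations of same-numbered libraries correlated at -0.06, -0.05 and 0.01, but control replicate 2 dominated the deviations of the controls, so these values cannot decide it. Leaving out 1 library gave 0 to 12 higher and 0 to 13 lower, with 0 in both directions unless it was control replicate 2, and likewise 0 over all genes. With no filter 15640 genes were tested, and their values also entered the variance trend. The cause of the shifts was not tested. Counts with a 5 FPKM minimum, other pseudocounts, no variance trend and voom were 1 and 3. Over all 10449 genes, calls of higher and lower were 66 and 157 with a pseudocount of 5 and 278 and 701 with one of 0.1. They were 200 and 469 with no variance trend and 380 and 679 with voom, beside 207 and 484 without these changes. With the 5 FPKM minimum they were 141 and 356 of 7226 genes (63 members tested). The same member counts thus stood beside different shares of all genes.

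The small snRNP median moved to 0.68 with 75th percentile scaling, 0.69 with library weights and 0.10 with trends on the recovered length and GC removed, and was 0.26 to 0.69 when leaving out 1 library. The SR and hnRNP median moved to 0.093 with length and GC trends removed, 0.085 with these removed and without control replicate 2, and 0.037 with trends on the recovered length and GC removed. The difference between the medians moved to 0.067 in the last of these, and was 0.31 to 1.25 in the rest.

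Of 858 log2 changes of 43 named members under 20 alternatives, 702 kept their direction and side of the threshold, 51 passed it anew, 37 no longer passed and 68 turned in sign, of which the following are the new values. With quantile normalization they were Lsm11 0.010, Lsm14a 0.020, Snrpa1 -0.027, Snrpb -0.58, Snrpe -0.11, Srsf4 0.25, U2af1 -0.068 and U2af2 0.24. With 75th percentile scaling they were Lsm11 0.15, Lsm8 0.25, Snrpa 0.16, Snrpd3 0.21, Srsf3 0.17, Srsf4 0.24, Srsf5 0.11 and U2af2 0.16. With median of ratios scaling they were Lsm11 0.084, Lsm8 0.16, Snrpa 0.062, Snrpd3 0.12, Srsf3 0.074, Srsf4 0.15, Srsf5 0.016 and U2af2 0.072. With library weights they were Lsm8 0.19 and Snrpd3 0.0074. With length and GC trends removed they were Lsm10 -0.13, Lsm14a 0.29, Lsm8 0.71, Snrpd3 0.45, Srsf3 0.54, Srsf4 0.25, Srsf5 0.55, U2af1 -0.48, U2af1l4 -0.18 and U2af2 0.016. With these trends removed and without control replicate 2 they were Lsm10 -0.10, Lsm11 0.040, Lsm14a 0.50, Lsm8 1.13, Snrpd3 0.70, Srsf3 0.76, Srsf4 0.36, Srsf5 0.66, U2af1 -0.69 and U2af1l4 -0.26. With trends on the recovered length and GC removed they were Lsm10 -0.018, Lsm11 0.044, Lsm14a 0.36, Lsm5 -0.32, Lsm7 -0.31, Snrpb -0.032, Snrpe -0.097, Srsf3 0.57, Srsf4 0.28, Srsf5 0.18, U2af1 -0.51, U2af1l4 -0.19 and U2af2 0.18. Leaving out 1 library gave Lsm1 -0.044 to 0.073, Lsm11 -0.086 to 0.034, Lsm8 -0.13 to 0.19, Snrpa1 -0.0077 to 0.057, Snrpd3 -0.11 to 0.010 and Srsf4 -0.074 to 0.011.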
